A study of Homo sapiens with 54 samples.

Results

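The 10 genes described here encode factors that drive the transcription of replication-dependent histone genes or form the 3′ end of their mRNAs. They were taken by name: NPAT, CASP8AP2, SLBP, ERI1, LSM10, LSM11, ZNF473, CPSF3, SYMPK and NCBP1. Each was found once among the 38137 genes listed, and all 10 were among the 15378 genes that passed the filter on low counts. Replication-dependent histone mRNAs are made in S phase, and unlike other mRNAs they end in a conserved stem-loop rather than in a poly(A) tail. NPAT and CASP8AP2 work at the histone locus body, the nuclear site where these genes are transcribed. SLBP binds the stem-loop, the U7 particle with its own ring proteins LSM10 and LSM11 pairs with the RNA downstream of it, and the cleavage complex that holds CPSF3 and SYMPK cuts between them.

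RNA was sequenced from HEK293T cells, an immortalised line of human embryonic kidney origin labelled wild-type in genotype, in 18 groups of 3 independent biological replicates (54 libraries). Cells were transiently transfected with plasmids for RfxCas13d (WT), an RNA-guided RNA nuclease, or for N2V7 or N2V8, which are variants of it mutated to lower its cleavage of bystander RNAs. Each effector was paired with crRNA-13 against C9ORF72 (S13), with 1 of 3 further crRNAs named S3, S4 and S7 (no label places their sites), or with a non-targeting crRNA (NTG). Other cells received the antisense oligonucleotide ASO2 or ASO4, or were untransfected (UT). By the labels cells were harvested at 48 h, and by the study's methods later. The CAG promoter drove the effector and the U6 promoter the crRNA. No sort of the transfected cells is described for these libraries.

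The stem-loop that SLBP and ERI1 recognise is shown for 5 histone genes, since it is the RNA element on which these factors act. The sequences are from GRCh38, read 5′ to 3′ on the strand of the gene, with the 16 bases of the stem-loop in capitals. H1-2, H2AC18, H2BC21 and H2BC5 are named again with the results, and H4C3 carries a further stem found.
H1-2 (chr6:26055739-26055764, minus strand): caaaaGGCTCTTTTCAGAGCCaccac
H2AC18 (chr1:149842218-149842243, minus strand): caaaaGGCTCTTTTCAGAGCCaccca
H2BC21 (chr1:149886183-149886208, minus strand): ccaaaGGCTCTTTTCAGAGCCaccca
H2BC5 (chr6:26158582-26158607, plus strand): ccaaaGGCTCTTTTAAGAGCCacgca
H4C3 (chr6:26104312-26104337, plus strand): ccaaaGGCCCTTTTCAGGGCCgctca

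The first 3 sequences share the stem-loop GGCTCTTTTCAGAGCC and differ only in the flanking bases. Stem-loops were taken as 6 paired bases on each side of a loop of 4, with the same letters in at least 5 of 66 listed replication-dependent histone genes, within 150 bases after the stop codon and on the sense strand alone. The rule found 3, with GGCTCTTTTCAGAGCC in 38 of the listed genes, and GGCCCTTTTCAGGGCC and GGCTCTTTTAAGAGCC in 9 each. At least 1 of these was in 56 of the listed genes (84.8%), from which they were chosen, against 61 of 20046 protein-coding genes in all (0.304%). Of the 29 histone genes with enough counts to be tested, 24 held one. The libraries were poly(A)-selected, so a histone level below is that of the molecules this selection retained.

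By RefSeq on GRCh38, NPAT lies on chromosome 11 (108157215 to 108222638), CASP8AP2 on 6 (89829880 to 89874436), SLBP on 4 (1692731 to 1712319), LSM10 on 1 (36393436 to 36397908), LSM11 on 5 (157743712 to 157760709) and ZNF473 on 19 (50026005 to 50048776). CPSF3 lies on chromosome 2 (9423654 to 9473101), SYMPK on 19 (45815410 to 45863147) and NCBP1 on 9 (97633821 to 97673748). LSM10 had the fewest estimated counts of the 10 factors, 65.8 to 319.6 per library, and CPSF3 the most, 1059 to 1676.

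The libraries held 9546826 to 15099153 estimated counts. Levels are given as CPM, counts put on a common library total, after TMM scaling for library composition. Differences are log2 fold changes ± SE from edgeR's quasi-likelihood fit of all 54 libraries. A call required a level over 25% above that of the other group, or below it by the same fold, with an adjusted p under 0.05. Library 2 of N2V7_S4 differed from all others. Its residual SD was 0.523, against at most 0.269 in any library outside that group. Calls that turned on it are given with and without it, while group means, their ratios and the correlations over them include it. C9orf72 stood at 11.01 ± 0.770 CPM with ASO4, against 28.97 ± 1.31 CPM in UT, and its means in the other groups were 24.4 to 29.9 CPM, with all transcript variants summed. Of the marker genes examined, LIN28B (93.9 to 212 CPM), IGF2BP1, IGF2BP3 and VIM were present in every library, whereas UMOD and AQP2, which mark differentiated kidney, were at 0 in every library.

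Each of the 10 factors was expressed in every library, and none varied widely between groups. The ratio of the highest to the lowest group mean was smallest for ERI1, at 1.23, and largest for ZNF473, at 1.66. UT was the highest group for NPAT (71.3 ± 7.38 CPM), CASP8AP2 (102 ± 6.58 CPM) and SYMPK (82.3 ± 3.13 CPM). N2V8_NTG was the highest group for LSM10 (23.5 ± 0.420 CPM), CPSF3 (135 ± 6.20 CPM) and NCBP1 (106 ± 5.28 CPM), and the lowest for NPAT (48.3 ± 1.19 CPM). When the 18 groups were ordered by their mean, 15 to 17 of the 17 neighbouring pairs overlapped in their libraries for each gene, so the order of neighbours was mostly within their spread. Across the 17 pairwise comparisons of a crRNA with NTG or of a group with UT, 18 of 170 values were called, 3 higher and 15 lower. This is 10.6% of the values, against 10.7% over all tested genes in the same comparisons. SYMPK and LSM10 had 4 of these calls each, while ERI1 and CPSF3 had 0. A further 3 comparisons, of NTG between effectors, held 4 higher calls, of which 1 was for CPSF3, and 2 lower. Of all tested genes, 23.8% were called between N2V8 and WT there, 10.7% between N2V7 and WT, and 6.36% between N2V8 and N2V7.

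**Figure D1:**
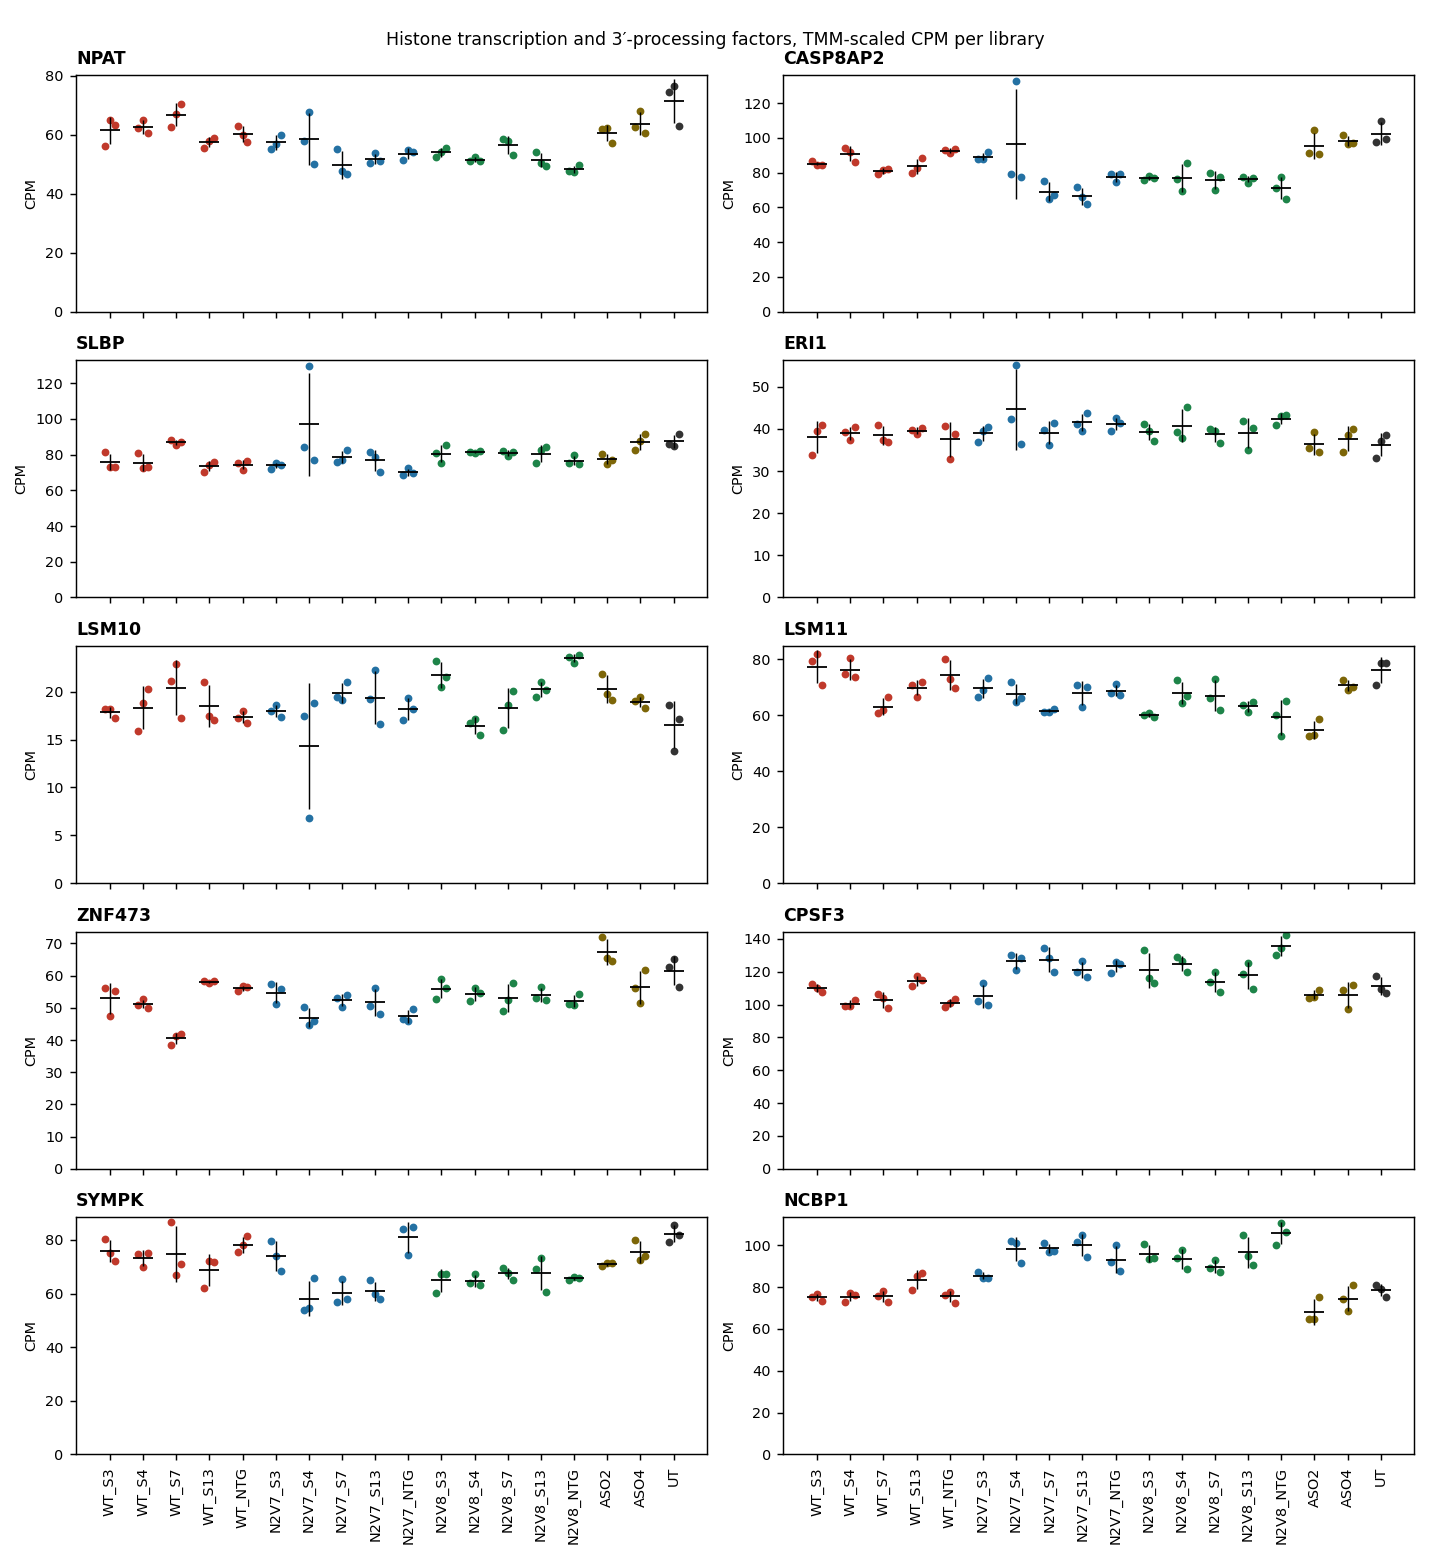
TMM-scaled CPM (vertical axes, from 0) of the 10 factors in the 18 groups (along the bottom). Each point is a library, and black marks give the mean and SD of 3. Levels lie within a narrow range in most groups, and library 2 of N2V7_S4 stands out with 129.8 CPM for SLBP and 6.80 CPM for LSM10.

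The first comparison set crRNA-13 against NTG in cells with the native WT effector. None of the 10 factors was called with edgeR, whereas 10.8% of all tested genes were, in either direction. With limma-trend and with DESeq2 the count was also 0, and 4 factors had an unadjusted p under 0.05. Their median difference was 0.02, against 0.00 over all tested genes, and the 95% intervals of all 10 lay between −0.33 and 0.30. In bulk libraries such as these, fewer cells of a kind and less RNA per cell cannot be told apart.

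SLBP, the stem-loop binding protein, had 70.3, 74.1 and 76.0 CPM in WT_S13 libraries, against 75.3, 71.4 and 76.4 CPM in WT_NTG libraries. The libraries overlapped, and the difference was −0.02 ± 0.06 (interval −0.14 to 0.10, adjusted p = 0.884). CPSF3, the endonuclease that makes the cut, had 111, 117 and 115 CPM in WT_S13 libraries, against 98.4, 101 and 103 CPM in WT_NTG libraries. All S13 libraries were above all NTG libraries, and 39.2% of all tested genes had libraries that did not overlap, in either direction. The CPSF3 difference of 0.18 ± 0.06 stayed under the fold threshold (adjusted p = 0.020). SYMPK, the scaffold of the cleavage complex, differed by −0.19 ± 0.07 (adjusted p = 0.0573), and NPAT, the histone gene coactivator, by −0.06 ± 0.06 (adjusted p = 0.537).

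The replication-dependent histone genes, in the same libraries, were higher with S13. Of 29 tested, 17 were called higher and 0 lower, with a median difference of 1.35. Their summed level was 399 ± 24.3 CPM in WT_S13, against 141 ± 10.6 CPM in WT_NTG. H2AC18, whose stem-loop is shown above, averaged 28.6 CPM in WT_S13 and 6.86 CPM in WT_NTG (log2 2.06 ± 0.14, adjusted p = 1.61e-16). Histone genes have near-identical copies, so the assignment of reads to a single gene is uncertain. The list follows a term that the study drew from these samples, so it is no independent evidence of its direction. No test compared the factors with the histone genes.

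In WT_S13, other pathway genes were called beside the 10.8% of all tested genes. Of 21 other cleavage and polyadenylation factors, 2 were called higher, the cleavage stimulation subunit CSTF3 (0.43 ± 0.07) and CLP1 (0.38 ± 0.10), and 1 lower, CPSF1 (−0.33 ± 0.05), the largest subunit of the specificity factor. Of 5 Sm proteins that complete the U7 ring, SNRPG (0.46 ± 0.11) and SNRPB (0.37 ± 0.06) were called higher. Of 11 partners of the cap-binding complex, SRRT (0.51 ± 0.06), which joins it to histone 3′ end formation, and NELFCD (0.34 ± 0.06), a subunit of the pausing factor NELF, were called higher. Of 34 S-phase and replication genes, 0 were called higher, and LIG1 (−0.43 ± 0.10) and CHAF1A (−0.33 ± 0.07) were called lower. Of 16 partners of histone gene transcription 1 was called higher and 2 lower, and of 18 translation and decay factors 2 were called higher and 1 lower. No test compared these lists with the 10 factors.

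With N2V7, SYMPK was the 1 factor of 10 called with S13, against 11.4% of all tested genes. SYMPK had 64.9, 59.7 and 58.0 CPM in N2V7_S13 libraries, against 83.9, 74.4 and 84.6 CPM in N2V7_NTG libraries. Every S13 library was below every NTG library, and SYMPK fell 1.33-fold (log2 −0.41 ± 0.07, adjusted p = 3.21e-05), a call that held with each library left out in turn. Of all tested genes, 39.0% had libraries that did not overlap here. CASP8AP2, which recruits the cleavage complex through LSM11, averaged 66.4 CPM in N2V7_S13 and 77.5 CPM in N2V7_NTG and did not pass the fold threshold (−0.22 ± 0.07, adjusted p = 0.0101). The share of ribosomal RNA counts was 4.17% to 4.42% with N2V7_S13, against 1.76% to 3.07% with N2V7_NTG, and its part in these values was not tested.

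Among the other pathway genes in N2V7_S13, the decay and translation factors CTIF (−0.61 ± 0.11), which serves translation of SLBP-bound histone mRNA, and UPF1 (−0.44 ± 0.05), the helicase of histone mRNA decay, were called lower, and LSM2 (0.34 ± 0.06) was called higher, out of 18. PCF11 (−0.66 ± 0.11) and RBBP6 (−0.43 ± 0.09), both of the poly(A) machinery, were called lower, with 0 of 21 higher. Of the 29 histone genes 6 were called higher and 0 lower, and their summed level was 191 ± 3.36 CPM in N2V7_S13, against 141 ± 13.4 CPM in N2V7_NTG.

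With N2V8, 0 of 10 factors were called with S13 by edgeR, limma-trend or DESeq2, against 2.44% of all tested genes with edgeR, and 3 had an unadjusted p under 0.05. CPSF3 had 119, 125 and 109.2 CPM in N2V8_S13 libraries, against 129.9, 134 and 142 CPM in N2V8_NTG libraries. The libraries did not overlap, as for 23.8% of all tested genes, but the difference of −0.20 ± 0.06 was under the fold threshold (adjusted p = 0.0094). LSM10, a ring protein found only in the U7 particle, averaged 20.2 CPM in N2V8_S13 and 23.5 CPM in N2V8_NTG (−0.22 ± 0.10, adjusted p = 0.115). The 4 histone genes called higher in N2V8_S13 included H2BC5 (0.78 ± 0.18), H1-2 (0.73 ± 0.15) and H2BC21 (0.49 ± 0.15), and 0 were called lower. The reference here, N2V8_NTG, is a group in which H1-2 was itself called lower than in UT. The share of ribosomal RNA counts was 3.98% to 4.96% with N2V8_S13, against 1.81% to 3.52% with N2V8_NTG, and its part in these values and in the differences between effectors was not tested.

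The S13 effect was then compared between effectors within the same fit. The share of ribosomal RNA counts was 1.79% to 2.30% with WT_S13, against 1.71% to 3.15% with WT_NTG, so these libraries overlapped. For CPSF3 the effect in N2V8 minus that in WT was −0.38 ± 0.08 (adjusted p = 0.000408), with −0.20 in N2V8 and 0.18 in WT, and it was the 1 factor of 10 called, against 18.3% of all tested genes. CPSF3 averaged 118 CPM in N2V8_S13 and 114 CPM in WT_S13, against 135 CPM in N2V8_NTG and 101 CPM in WT_NTG. Its NTG references were thus further apart than its S13 groups. NCBP1 was called too without replicate 1 of N2V8_S13 (−0.33). Between N2V8 and N2V7, 2 of 10 were called, against 14.2% of all tested genes. These were SYMPK, at 0.46 ± 0.10 (adjusted p = 0.000968), with 0.04 in N2V8 and −0.41 in N2V7, and CASP8AP2, at 0.32 ± 0.09 (adjusted p = 0.00828), with 0.10 in N2V8 and −0.22 in N2V7. SYMPK averaged 67.6 CPM in N2V8_S13 and 60.9 CPM in N2V7_S13, against 65.7 CPM in N2V8_NTG and 81.0 CPM in N2V7_NTG. The NTG references of SYMPK were thus further apart than its S13 groups. The CASP8AP2 difference sat at the fold threshold and was not called without the factor of unwanted variation (0.32), with DESeq2 (0.32), or in 7 of 18 fits that left out a library. These were the fits without replicate 1 (0.31) or 3 (0.31) of N2V7_NTG, replicate 2 (0.32) or 3 (0.27) of N2V7_S13, replicate 3 of N2V8_NTG (0.26), and replicate 1 (0.31) or 3 (0.31) of N2V8_S13. Without replicate 3 of N2V7_S13, LSM10 was called as well (−0.40). Between N2V7 and WT, 0 of 10 were called by edgeR, limma-trend or DESeq2, against 14.9% of all tested genes with edgeR, and 2 had an unadjusted p under 0.05.

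The additional crRNAs were compared singly with the NTG libraries of the same effector, which all 3 of them and S13 share. In WT, ZNF473, the zinc-finger protein that bridges SLBP and the U7 particle, was the 1 factor called with S7, against 19.2% of all tested genes. It had 38.6, 41.2 and 41.9 CPM in WT_S7 libraries, against 55.2, 56.7 and 56.3 CPM in WT_NTG libraries. The libraries were well apart and ZNF473 fell 1.38-fold (log2 −0.47 ± 0.07, adjusted p = 9.22e-07), while in WT_S13 it was at 0.05 ± 0.07 (adjusted p = 0.66). The difference between S7 and S13 was not tested.

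In WT_S7, 3 other factors had an adjusted p under 0.05 and stayed under the fold threshold, SLBP at 0.22 ± 0.06, LSM11 at −0.23 ± 0.07 and CASP8AP2 at −0.19 ± 0.06. LSM10 (0.23 ± 0.10) was called higher without replicate 3 of WT_S7 (0.34). With S3 and with S4, 0 of 10 factors were called in WT by edgeR, limma-trend or DESeq2, against 2.74% and 2.67% of all tested genes with edgeR, and 1 and 0 had an unadjusted p under 0.05. The histone genes were nonetheless higher there. Of 29, 13 were called higher with S3, 16 with S4 and 14 with S7, with 0 lower each time. H2BC21 averaged 59.3 CPM in WT_S3 and 7.08 CPM in WT_NTG (log2 3.07 ± 0.12).

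In WT_S7 the partners of histone gene transcription had 6 of 16 called higher and 0 lower. These included the cyclin E genes CCNE2 (0.92 ± 0.10) and CCNE1 (0.67 ± 0.12), whose kinase acts on NPAT, and CCNF (0.35 ± 0.06), which encodes a cyclin for SLBP turnover. NPAT itself stood at 66.7 ± 3.93 CPM in WT_S7 and 60.1 ± 2.70 CPM in WT_NTG (0.15 ± 0.06, adjusted p = 0.0931). Of the S-phase genes, UNG (0.79 ± 0.05) was among 5 called higher, and LIG1 (−1.08 ± 0.10) and PRIM1 (−0.64 ± 0.07) were among 4 called lower.

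**Figure D2:**
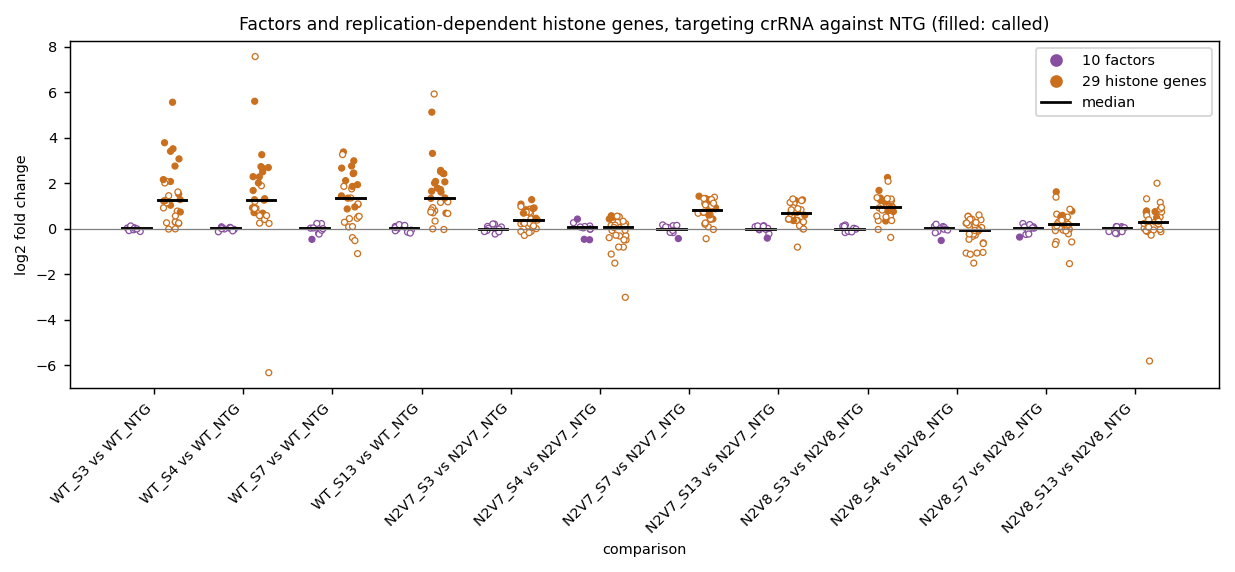
log2 fold change (vertical axis) of the 10 factors and of the 29 tested replication-dependent histone genes in each comparison of a targeting crRNA with NTG (horizontal axis). Points are genes, spread sideways at random, filled where called, and black bars are medians. The medians of the factors lie between −0.01 and 0.06, with single factors called as far as −0.52 (LSM10 in N2V8_S4), while the histone median is 1.35 in WT_S13.

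In N2V7, SYMPK was lower with S7 as well, the 1 factor of 10 called, against 14.3% of all tested genes. It had 56.9, 65.3 and 58.1 CPM in N2V7_S7 libraries, against the 74.4 to 84.6 CPM of N2V7_NTG, and fell 1.35-fold (log2 −0.43 ± 0.07, adjusted p = 1.11e-05). With S4 it had 53.98, 54.6 and 65.8 CPM and fell 1.40-fold (−0.48 ± 0.07, adjusted p = 1.47e-06). With S3 it averaged 74.0 CPM and was not called (−0.13 ± 0.07, adjusted p = 0.224). The S13, S7, S4 and S3 comparisons share the N2V7_NTG libraries, where SYMPK was at 81.0 ± 5.69 CPM. In UT it was at 82.3 ± 3.13 CPM.

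With S4 in N2V7, 3 of 10 factors were called, against 24.2% of all tested genes, and 2 of these calls turned on library 2. When only the compared libraries were fitted, 1 factor of 10 was called, against 366 of 13992 tested genes. SLBP had 84.1, 129.8 and 76.8 CPM in N2V7_S4 libraries, against 68.3, 72.3 and 69.8 CPM in N2V7_NTG libraries, and was called 1.34-fold higher (0.42 ± 0.06, adjusted p = 3.23e-07). The factor of unwanted variation in this fit had 63.3% of its squared weight on library 2. The SE and p of SLBP therefore do not measure the spread of its N2V7_S4 libraries (SD 28.8 CPM). Without library 2 of N2V7_S4 the SLBP difference was 0.20 and was not called. LSM10 had 17.5, 6.80 and 18.9 CPM in N2V7_S4 libraries, against 17.004, 19.4 and 18.2 CPM in N2V7_NTG libraries, so the groups overlapped, and its call (−0.46 ± 0.11, adjusted p = 0.0011) was lost without that library, at −0.00. SYMPK kept its call with each library left out. CASP8AP2 (0.26 ± 0.06) was not called, and stood at 0.02 without library 2. It was called without replicate 1 (0.38) or replicate 3 (0.40) of N2V7_S4, fits in which library 2 made up more of the group. With S3 in N2V7, 0 of 10 factors were called by edgeR, limma-trend or DESeq2, against 4.15% of all tested genes with edgeR, and 4 had an unadjusted p under 0.05.

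In N2V8, LSM10 was the factor called, with S4 and with S7. It had 16.8, 17.1 and 15.5 CPM in N2V8_S4 libraries, against 23.6, 23.1 and 23.9 CPM in N2V8_NTG libraries. All S4 libraries were below all NTG libraries, and LSM10 fell 1.43-fold (−0.52 ± 0.10, adjusted p = 7.81e-05), the 1 call of 10 against 6.15% of all tested genes. Of all tested genes, 30.5% had libraries of S4 and NTG that did not overlap. With S7 LSM10 had 16.001, 18.7 and 20.1 CPM and was 1.29-fold lower (−0.37 ± 0.10, adjusted p = 0.00517), again the 1 call of 10, against 7.33% of all tested genes. The S7 call was lost without replicate 1 of N2V8_S7 (−0.28) and without the factor of unwanted variation (−0.36). With S3 in N2V8, 0 of 10 factors were called by edgeR, limma-trend or DESeq2, against 3.07% of all tested genes with edgeR, and 3 had an unadjusted p under 0.05.

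These LSM10 differences were measured against a group in which LSM10 was at its highest. In UT it had 18.6, 13.9 and 17.2 CPM, and in WT_NTG 17.3, 17.96 and 16.7 CPM. Beside LSM10 in N2V8_S7, 3 of 5 Sm proteins of the ring were called lower, SNRPF (−0.47 ± 0.14), SNRPB (−0.41 ± 0.06) and SNRPG (−0.33 ± 0.10).

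**Figure D3:**
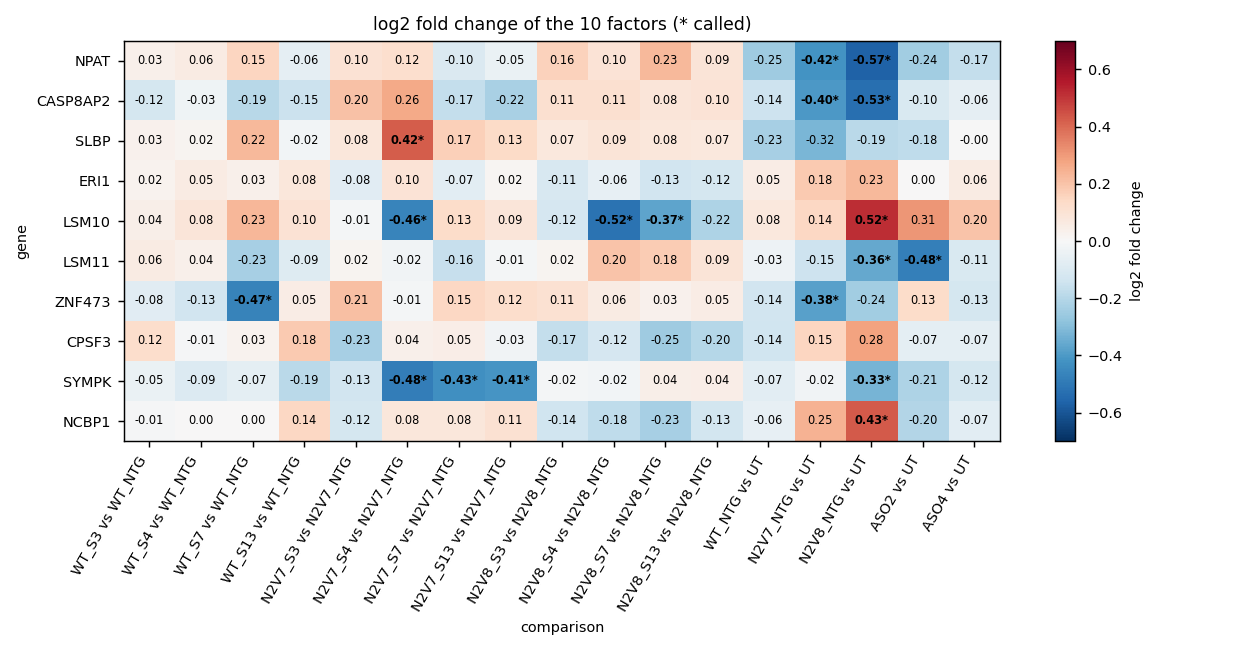
log2 fold change (colour, printed in each cell) of the 10 factors (rows) in 17 pairwise comparisons (columns). Asterisks mark the 18 called values. NPAT and CASP8AP2 are called lower only in N2V7_NTG and N2V8_NTG against UT, and SYMPK is called lower in 3 of the 4 N2V7 comparisons with NTG.

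The next comparison asked how cells with an effector and a non-targeting crRNA differed from untransfected cells. NPAT and CASP8AP2 were called lower with both variants. Of 16 other partners of histone gene transcription, 3 were called higher and 3 lower in N2V7_NTG, and 3 higher and 4 lower in N2V8_NTG. NPAT had 51.5, 54.9 and 54.2 CPM in N2V7_NTG libraries and 47.8, 47.4 and 49.6 CPM in N2V8_NTG libraries, against 74.5, 76.6 and 62.9 CPM in UT libraries. It fell 1.34-fold with N2V7 (−0.42 ± 0.06, adjusted p = 4.77e-07) and 1.48-fold with N2V8 (−0.57 ± 0.07, adjusted p = 3.43e-10). CASP8AP2 had 79.0, 74.4 and 79.0 CPM in N2V7_NTG libraries and 71.3, 77.6 and 64.8 CPM in N2V8_NTG libraries, against 97.8, 110.0 and 99.6 CPM in UT libraries. It fell 1.32-fold with N2V7 (−0.40 ± 0.06, adjusted p = 7.35e-07) and 1.44-fold with N2V8 (−0.53 ± 0.06, adjusted p = 1.64e-09). For both genes and both variants, every NTG library was below every UT library. Over all tested genes, the libraries did not overlap with UT for 44.3% in N2V7_NTG and 51.2% in N2V8_NTG. UT cells differ from the NTG cells in transfection as well as in the effector.

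For N2V8_NTG, 6 of 10 factors were called, against 29.9% of all tested genes. Of these 4 were lower, as were 14.7% of all tested genes, and 2 were higher, as were 15.3%. The 10 factors all had libraries that did not overlap with UT, as did 51.2% of all tested genes, and their median absolute difference was 0.34, against 0.27 over all tested genes. LSM11, the other ring protein of the U7 particle, averaged 59.2 ± 6.32 CPM in N2V8_NTG and 76.0 ± 4.63 CPM in UT (−0.36 ± 0.07, adjusted p = 2.62e-05), and SYMPK averaged 65.7 ± 0.484 CPM in N2V8_NTG and 82.3 ± 3.13 CPM in UT (−0.33 ± 0.07, adjusted p = 0.000372). These calls sat close to the fold threshold. That of LSM11 was lost without replicate 2 of N2V8_NTG (−0.28), and that of SYMPK without replicate 1 of N2V8_NTG (−0.32) or replicate 2 of UT (−0.30).

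LSM10 rose 1.43-fold, with 23.6, 23.1 and 23.9 CPM in N2V8_NTG libraries, against 18.6, 13.9 and 17.2 CPM in UT libraries (0.52 ± 0.10, adjusted p = 3.54e-05). LSM10 and LSM11, which sit in the same ring, were thus called in opposite directions. NCBP1, the large subunit of the nuclear cap-binding complex, rose 1.34-fold, with 100.03, 111 and 106 CPM in N2V8_NTG libraries, against 81.1, 78.9 and 75.4 CPM in UT libraries (0.43 ± 0.06, adjusted p = 1.08e-07). CPSF3 (0.28 ± 0.06, adjusted p = 8.45e-05), ERI1 (0.23 ± 0.08, adjusted p = 0.0235), ZNF473 (−0.24 ± 0.07, adjusted p = 0.0047) and SLBP (−0.19 ± 0.06, adjusted p = 0.0133) stayed under the fold threshold.

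For N2V7_NTG, 3 of 10 factors were called, against 20.8% of all tested genes, and all 3 were lower, as were 9.95% of all tested genes. Beside NPAT and CASP8AP2 this was ZNF473, with 46.6, 45.8 and 49.6 CPM in N2V7_NTG libraries, against 62.8, 65.3 and 56.5 CPM in UT libraries (−0.38 ± 0.07, adjusted p = 1.28e-05). SLBP averaged 70.1 ± 1.99 CPM in N2V7_NTG and 87.5 ± 3.72 CPM in UT, a difference of −0.32 ± 0.06 (adjusted p = 3.22e-05) that lay just under the fold threshold. It was called without replicate 2 of N2V7_NTG (−0.34), replicate 1 of UT (−0.33) or replicate 2 of UT (−0.34). For WT_NTG, 0 of 10 were called by edgeR, limma-trend or DESeq2, against 5.09% of all tested genes with edgeR, and 5 had an unadjusted p under 0.05. NPAT (−0.25 ± 0.06, adjusted p = 0.0013) and SLBP (−0.23 ± 0.06, adjusted p = 0.00183) had the largest differences there, and CASP8AP2 was at −0.14 ± 0.06 (adjusted p = 0.0694). Without replicate 3 of UT, whose NPAT level was the lowest of the 3, NPAT was called lower in WT_NTG as well (−0.33).

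**Figure D4:**
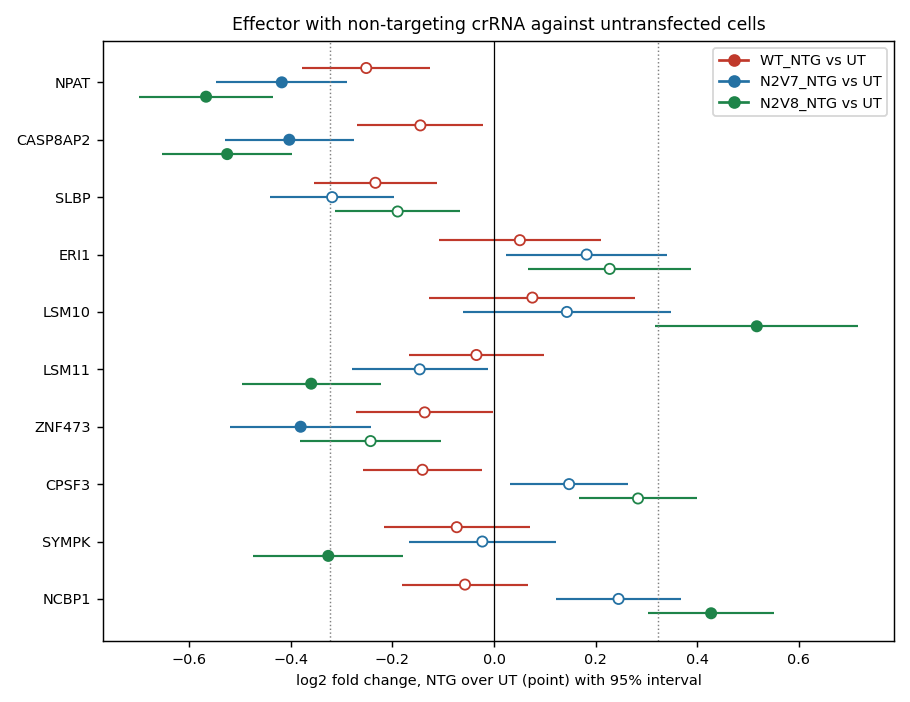
log2 fold change (horizontal axis) of each factor (vertical axis) with a non-targeting crRNA over untransfected cells, for WT, N2V7 and N2V8. Points are estimates, filled where called, lines are 95% intervals, and dotted lines mark the fold threshold of a call. NPAT stands at −0.25, −0.42 and −0.57, and NCBP1 at −0.06, 0.25 and 0.43, for the 3 effectors from top to bottom.

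Whether the effectors differed from each other with the same non-targeting crRNA was compared directly, a comparison added after the values against UT had been seen. In N2V8_NTG against WT_NTG, 5 of 10 factors were called, against 23.8% of all tested genes. CPSF3 had 129.9, 134 and 142 CPM in N2V8_NTG libraries, against 98.4, 101 and 103 CPM in WT_NTG libraries (0.42 ± 0.06, adjusted p = 5.34e-08). NCBP1 averaged 106 CPM in N2V8_NTG and 75.5 CPM in WT_NTG (0.48 ± 0.06, adjusted p = 8.21e-09), LSM10 was called higher (0.44 ± 0.10), and CASP8AP2 (−0.38 ± 0.06) and LSM11 (−0.33 ± 0.07) were called lower. The CASP8AP2 call was lost without replicate 3 of N2V8_NTG (−0.32), and the LSM11 call without replicate 2 of N2V8_NTG (−0.25) or replicate 1 of WT_NTG (−0.27). NPAT was at −0.32 ± 0.07 (adjusted p = 0.000169), just under the fold threshold, and was called without replicate 3 of WT_NTG (−0.35), replicate 1 of N2V7_NTG (−0.33) or replicate 3 of N2V8_NTG (−0.34).

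In N2V8_NTG against N2V7_NTG, LSM10 was the 1 factor called (0.37 ± 0.10, adjusted p = 0.00275), against 6.36% of all tested genes, and the call was lost without replicate 1 of N2V7_NTG (0.31) or without the factor of unwanted variation (0.37). In N2V7_NTG against WT_NTG, 0 of 10 were called by edgeR, limma-trend or DESeq2, against 10.7% of all tested genes with edgeR, and 5 had an unadjusted p under 0.05. CPSF3 (0.29 ± 0.06) and NCBP1 (0.30 ± 0.06) had the largest differences of these, and NCBP1 was called without replicate 2 of WT_NTG (0.32) or replicate 3 of N2V7_NTG (0.34). Between N2V8_NTG and N2V7_NTG, SYMPK (−0.30 ± 0.07) was called lower without replicate 2 of N2V7_NTG (−0.36).

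The other lists of pathway genes in N2V8_NTG against UT stand beside the 29.9% of all tested genes called there. Of the Sm proteins 4 of 5 were called higher, among them SNRPG (0.73 ± 0.11), SNRPB (0.67 ± 0.06) and SNRPF (0.59 ± 0.14). Of the cap-binding partners, 3 of 11 were called higher, including NELFCD (0.76 ± 0.06) and SRRT (0.60 ± 0.06), and the elongation kinase CDK9 was called lower (−0.38 ± 0.08). Of the cleavage and polyadenylation factors, 5 of 21 were called higher and 1 lower, a share near that of all tested genes, with CSTF3 at 0.72 ± 0.07 and CPSF1 at −0.50 ± 0.06. Of the partners of histone gene transcription, 3 of 16 were called higher and 4 lower, with cyclin A gene CCNA2 at 0.61 ± 0.06 and E2F2, an S-phase transcription factor, at −0.66 ± 0.08. Of the translation and decay factors, 4 of 18 were called higher and 2 lower.

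Of the 29 histone genes, 4 were called higher and 1 lower in N2V8_NTG against UT, with a median difference of 0.25, and their summed level was 161 ± 6.72 CPM in N2V8_NTG and 130.4 ± 6.01 CPM in UT. H4C15, with near-identical copies, was called higher (0.93 ± 0.18), and H1-2, a linker histone gene, was called lower (−0.60 ± 0.16). Of the 34 S-phase and replication genes, 3 were called higher and 6 lower, the lower ones including CDT1 (−0.71 ± 0.05), a licensing factor, and PRIM1 (−0.70 ± 0.06), a primase subunit.

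Transcript length moved with these differences over all genes. A length from the canonical GENCODE transcript was found for 14451 of the 15378 tested genes, all 10 factors included, and these were split into 4 bins of equal number by length. From the shortest bin to the longest, the median difference between N2V8_NTG and UT was 0.16, 0.06, −0.03 and −0.16. NPAT (6113 bases), CASP8AP2 (6088 bases) and LSM11 (6567 bases) are in the longest bin and were lower, and LSM10 (860 bases) is in the shortest and was higher. SLBP (1810 bases), also in the shortest bin, and NCBP1 (4983 bases) and ERI1 (4521 bases), in bin 3, lay on the other side of 0 from the median of their bin. The medians were 0.04, 0.00, −0.00 and −0.04 for N2V7_NTG against UT, and 0.15, 0.05, −0.04 and −0.13 for N2V7_S13 against N2V7_NTG, where SYMPK (4077 bases, bin 3) was at −0.41. For N2V7_S7 against N2V7_NTG, where SYMPK was at −0.43, the medians were 0.17, 0.05, −0.05 and −0.16. For ASO2 against UT, where LSM11 was at −0.48, they were 0.12, 0.04, −0.02 and −0.09. The part of length in these values was not tested.

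**Figure D5:**
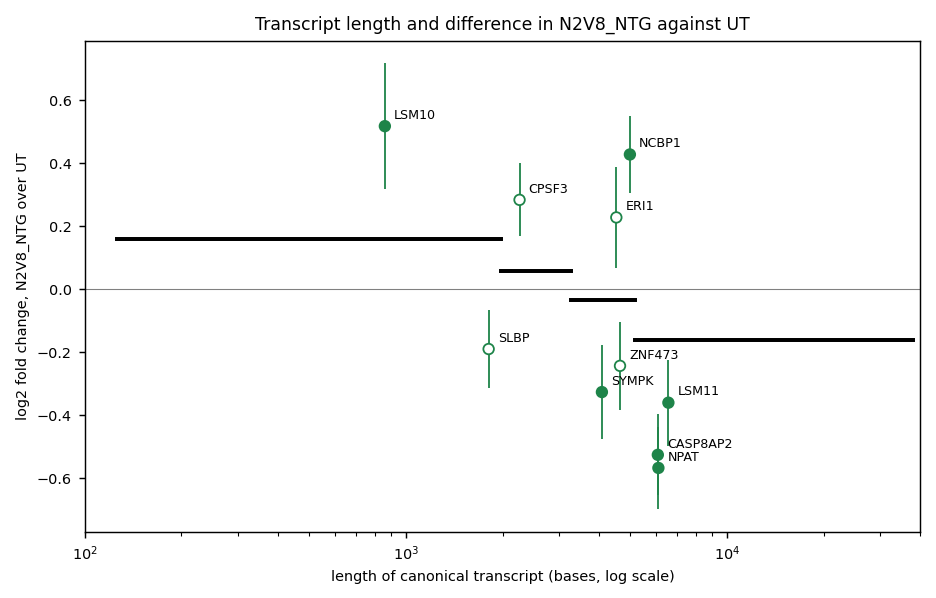
log2 fold change in N2V8_NTG over UT (vertical axis) against the length of the canonical transcript in bases (horizontal axis, log scale). Black bars span the 4 bins of all tested genes by length at their median difference, points are the 10 factors, filled where called, and vertical lines are 95% intervals. NPAT, CASP8AP2 and LSM11 lie under the median of −0.16 of the longest bin.

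The oligonucleotides were compared with the same UT libraries. With ASO2, LSM11 was the 1 factor of 10 called, against 16.1% of all tested genes. It had 52.6, 52.7 and 58.4 CPM in ASO2 libraries, against 70.6, 78.6 and 78.7 CPM in UT libraries. The libraries did not overlap, as for 40.6% of all tested genes, and LSM11 fell 1.39-fold (−0.48 ± 0.07, adjusted p = 1.97e-07), a call that held with each library left out. LSM10 was at 0.31 ± 0.10 (adjusted p = 0.0234), under the fold threshold, and was called higher without replicate 1 (0.40) or 3 (0.34) of UT, or replicate 2 (0.33) or 3 (0.35) of ASO2. NPAT (−0.24 ± 0.06), SLBP (−0.18 ± 0.06), SYMPK (−0.21 ± 0.07) and NCBP1 (−0.20 ± 0.06) also had an adjusted p under 0.05 without passing the fold threshold.

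With ASO2, 9 of 34 S-phase and replication genes were called lower and 0 higher, including LIG1 (−0.68 ± 0.10), POLE (−0.65 ± 0.06), the catalytic subunit of a leading-strand polymerase, and MCM7 (−0.47 ± 0.04), a helicase subunit. Of the 29 histone genes 5 were called higher and 0 lower, among them H1-2 (1.06 ± 0.13). With ASO4, 0 of 10 factors were called by edgeR, limma-trend or DESeq2, against 2.13% of all tested genes with edgeR, and 2 had an unadjusted p under 0.05. SLBP averaged 87.2 ± 4.66 CPM in ASO4 and 87.5 ± 3.72 CPM in UT (−0.00 ± 0.06, interval −0.12 to 0.12).

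ERI1, the exonuclease that trims the stem-loop end, was called in none of the 23 comparisons by edgeR, and its unadjusted p was under 0.05 in 3 of them. Its group means lay between 36.3 ± 2.75 CPM in UT and 44.7 ± 9.60 CPM in N2V7_S4, where replicate 2 had 55.2 CPM and the others 42.5 and 36.4 CPM.

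Over the 18 group means, some factors varied together. Pearson's r of the log2 levels was 0.89 for CPSF3 with NCBP1, 0.82 for NPAT with CASP8AP2, and 0.79 for ERI1 with NCBP1. It was −0.83 for NPAT with NCBP1 and −0.77 for NPAT with CPSF3. SLBP had its highest r with NPAT, at 0.36. These are descriptions over groups that share an effector or a crRNA, with all libraries from 1 sequencing lane.

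Of 11764 genes compared in the same way, those most like each factor were as follows. CTIF was most like SYMPK, with an r of 0.96. It was called lower beside SYMPK with S13, S4 and S7 in N2V7, and in WT_S13 (−0.39 ± 0.10), where SYMPK was not called. CTIF was picked by its likeness over these same groups, so its calls beside SYMPK are no separate evidence. TMCO1 was most like NCBP1 (0.96), EMSY most like CASP8AP2 (0.95), CEP97 most like NPAT (0.94), DLAT most like ERI1 (0.94) and FH most like CPSF3 (0.93). The closest gene was CDC34 for LSM10 (0.91), INHBE for ZNF473 (0.89), PCSK5 for LSM11 (0.88) and NAP1L1 for SLBP (0.83).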

How the data were processed

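The authors sequenced poly(A)-selected stranded libraries from 54 HEK293T cultures and deposited estimated counts per gene, made with Salmon (version 1.5.2), an index of spliced NCBI transcripts in which GRCh38 served as decoy, and the lengthScaledTPM option of tximport. The authors also deposited a TRUE or FALSE mark (unit: other) of the genes they kept, whose rule is not given in the sources used here and which was not used in a test. Groups were taken from the sample titles.

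Estimated counts were rounded and genes filtered with filterByExpr of edgeR (version 4.0.16) in R (version 4.3.3), which left 15378 genes. The genes below the filter held 0.0722% of counts. Libraries were scaled by TMM and fitted together, with a term for each group plus 1 factor of unwanted variation taken from the residuals (the RUVr method), which held 23.5% of the residual variance, with 95.6% of its squared weight on N2V7_S4. The quasi-likelihood F test was used with robust dispersion and 35 residual degrees of freedom. P-values were adjusted by Benjamini-Hochberg within a family, over every gene and comparison in it. The families were S13 against NTG (3), its differences between effectors (3), NTG against UT (3), the additional crRNAs (9), the oligonucleotides (2) and NTG between effectors (3), the last chosen after the data were seen. Replicate numbers did not pair the samples, since residuals of same-numbered libraries had a mean correlation of 0.00112.

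The 10 members are all named. Of the other lists, up to 3 called genes per list and comparison with the largest change and a mean log2 CPM of at least 2 are named, and for each member the genes with the highest correlation over group means. The members and lists were chosen with earlier results of these data known. Alternatives were limma-trend (version 3.58.1), DESeq2 (version 1.42.0), DESeq2 size factors, no factor, no filter, a replicate block, a threshold of 0.01 on the adjusted p, p-values adjusted one comparison at a time, a fit of only the compared libraries, and each library left out, in which the dispersions were held at those of all libraries. The tests were checked on simulated data. Stem-loops and lengths were read from GRCh38 with GENCODE.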

Additional observations from a re-analysis of the deposited data

Results flagged for a closer look

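Differences between effectors in the S13 effect passed the test for 3 values. Of all tested genes, 18.3% were called between N2V8 and WT, 14.9% between N2V7 and WT, and 14.2% between N2V8 and N2V7. For CPSF3, the effect in N2V8 minus that in WT was −0.38, with every N2V8_S13 library below every N2V8_NTG library and every WT_S13 library above every WT_NTG library. Its mean was 118 CPM in N2V8_S13 and 114 CPM in WT_S13, against 135 CPM in N2V8_NTG and 101 CPM in WT_NTG. The NTG references were thus further apart than the S13 groups. Libraries of S13 and NTG did not overlap for 23.8% of all tested genes in N2V8 and 39.2% in WT. For SYMPK, the effect in N2V8 minus that in N2V7 was 0.46. Its mean was 67.6 CPM in N2V8_S13 and 60.9 CPM in N2V7_S13, against 65.7 CPM in N2V8_NTG and 81.0 CPM in N2V7_NTG. The NTG references were thus further apart than the S13 groups here too. For CASP8AP2, the effect in N2V8 minus that in N2V7 was 0.32, and this call was lost under 4 of 9 other settings.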

How the results depend on the processing

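No value of a factor changed its direction while called. Of 2070 values under other settings, 2059 kept their side of the thresholds, 9 lost a call and 2 gained one, and of 5130 values with a library left out, 5094 kept it, 17 lost a call and 19 gained one. With each library left out in turn, the count of called factors was 1 to 1 for S13 against NTG, 2 to 3 for its differences between effectors (3 with all libraries), 8 to 10 for NTG against UT (9), 5 to 8 for the additional crRNAs (7), 1 to 2 for the oligonucleotides (1) and 5 to 7 for NTG between effectors (6). With the replicate block these counts were 1, 2, 9, 7, 1 and 6, and the block ended the CASP8AP2 call between N2V8 and N2V7 (0.32) and no other call. SLBP and LSM10 in N2V7_S4 were not called when only the compared libraries were fitted (0.46 and −0.33).

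Counts over all tested genes moved by more than 1.5 times for some comparisons. For N2V7_S4 against NTG, 3715 genes were called in the fit of all libraries and 366 with only the compared libraries. For N2V8_S13 the count was 375, against 169 at an adjusted p under 0.01, 240 with adjustment within the comparison and 241 without the factor of unwanted variation. At an adjusted p under 0.01 it was 452 in place of 783 for WT_NTG against UT, 153 in place of 328 for ASO4 against UT and 611 in place of 978 for N2V8_NTG against N2V7_NTG. Against NTG it was 247 in place of 422 for WT_S3, 227 in place of 410 for WT_S4, 361 in place of 638 for N2V7_S3, 230 in place of 472 for N2V8_S3, 604 in place of 946 for N2V8_S4 and 734 in place of 1127 for N2V8_S7. For the difference in the S13 effect it was 1446 in place of 2289 between N2V7 and WT, and 1396 in place of 2189 between N2V8 and N2V7 (1441 without the factor). Adjusted within the comparison, WT_S3 had 249 genes, WT_S4 237 and ASO4 167, and ASO4 had 212 without the factor. With 3 libraries per group, SEs of the factors in comparisons of 2 groups were 0.06 to 0.11.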
